A study of Drosophila melanogaster with 12 samples.

Results

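The proteasome subunit genes of Drosophila melanogaster were followed across 12 Affymetrix arrays of eye discs, the larval epithelia that form the adult eye. Genes were taken by symbol: Prosalpha, Prosbeta, Rpn or Rpt and then a digit. This gave 40 genes of the 11983 genes tested: 12 core genes, 14 cap genes and 14 copies whose symbol has a T or R after the number. Each of the 40 was measured by 1 probe set, a group of short probes for 1 transcript, and its value is a log2 signal, so that a difference of 1 is a factor of 2. A probe set that listed Prosalpha1 together with Prosalpha1R was left out, because its signal could not be given to either gene. Proteasome subunits outside these genes were not analysed here. All discs came from late (L3) larvae. There were 4 genotypes, and the labels count 3 biological replicates for each: Canton S, a wild-type strain, rbf120a, wtsX1Lats, and the double mutant rbf120a wtsX1Lats. The sample titles write the first allele as rbfl120a, which was taken here to be rbf120a. Rbf is the fly retinoblastoma family gene, whose product restrains E2F transcription factors, and wts encodes Warts, the Lats kinase of the Hippo growth pathway. Per the series' design text the mutant discs were mosaics in which mutant cells made up most of the tissue, so wild-type cells remained in them. The sources used here do not give how the mosaics were made or how many discs went into a replicate, and the design does not separate an allele from a difference between strains.

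The proteasome is the protease that degrades proteins marked with ubiquitin. Its core is a barrel of stacked rings: the outer rings of alpha subunits form the gate, and the inner rings of beta subunits hold the active sites. The cap binds ubiquitinated proteins, removes the ubiquitin, unfolds the substrate and feeds it into the core. The base of the cap carries the Rpt ATPases with Rpn1, Rpn2 and Rpn13, and the lid carries the deubiquitinase Rpn11 with its scaffold subunits. In flies several subunits have a second gene, and several of these copies are known from the male germline. The members lie on chromosome X and on all the large autosome arms.

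None of the 40 proteasome genes measured passed the test across all genes for a change with genotype, which was limma with Benjamini-Hochberg adjustment and a threshold of 0.05 on the adjusted p. In rbf120a against Canton S, 0 of the 40 genes passed, where 3.50% of all genes did, 1.79% higher and 1.71% lower. In wtsX1Lats against Canton S, 0 of 40 passed against 5.61% of all genes, 2.28% higher and 3.33% lower. In the double mutant against Canton S, 0 of 40 passed against 5.49%, 2.23% higher and 3.26% lower. The double mutant against rbf120a called 0 of 40, where 0.676% of all genes passed, 0.342% higher and 0.334% lower. The double mutant against wtsX1Lats called 0 of 40, where 0% of all genes passed. The interaction also called 0 of 40, where 0.893% passed, 0.492% higher and 0.401% lower. The interaction subtracts the rbf120a change on the Canton S background from the one seen on the wtsX1Lats background. The 3 contrasts with Canton S share its arrays and are not independent of each other. At an unadjusted p under 0.05 the 26 core and cap genes gave 0 higher and 0 lower in rbf120a, where 6.67% of all genes were higher and 5.85% lower. In wtsX1Lats they gave 0 and 1, against 10.8% and 9.88%, and in the double mutant 0 and 0, against 7.33% and 9.05%. Set against rbf120a, the double mutant gave 0 and 1, against 2.90% and 5.47%. Set against wtsX1Lats it gave 0 and 2, against 4.08% and 4.54%, and the interaction gave 0 and 1, against 4.23% and 5.42%.

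The 95% intervals of the 26 core and cap genes bound the change of the bulk signal, wild-type cells of the mosaic discs included. In rbf120a against Canton S they ran from 0.780-fold to 1.22-fold over all 26 genes. In wtsX1Lats they ran from 0.781-fold to 1.31-fold, and in the double mutant from 0.768-fold to 1.24-fold. Against rbf120a the double mutant's intervals lay between 0.749-fold and 1.25-fold, and against wtsX1Lats between 0.751-fold and 1.19-fold. Each interval is for its own gene and is not adjusted for the number of genes. The interaction was less well bounded, from 0.678-fold to 1.30-fold. The median log2 change of the 26 genes was 0.0143 for rbf120a, 0.0478 for wtsX1Lats and -0.059 for the double mutant, against medians of 9.78e-05, 0.0185 and 0.0024 over all genes. Single arrays moved these medians. The one for rbf120a ran from -0.0295 without rbf120a replicate 1 to 0.0645 without rbf120a replicate 3, and so changed direction. The one for the double mutant ran from -0.0785 without Canton S replicate 2 to -0.0191 without Canton S replicate 1, and was -0.026 with arrays centred on their medians. In bulk discs, fewer cells of a type and less RNA per cell cannot be told apart.

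**Figure D1:**
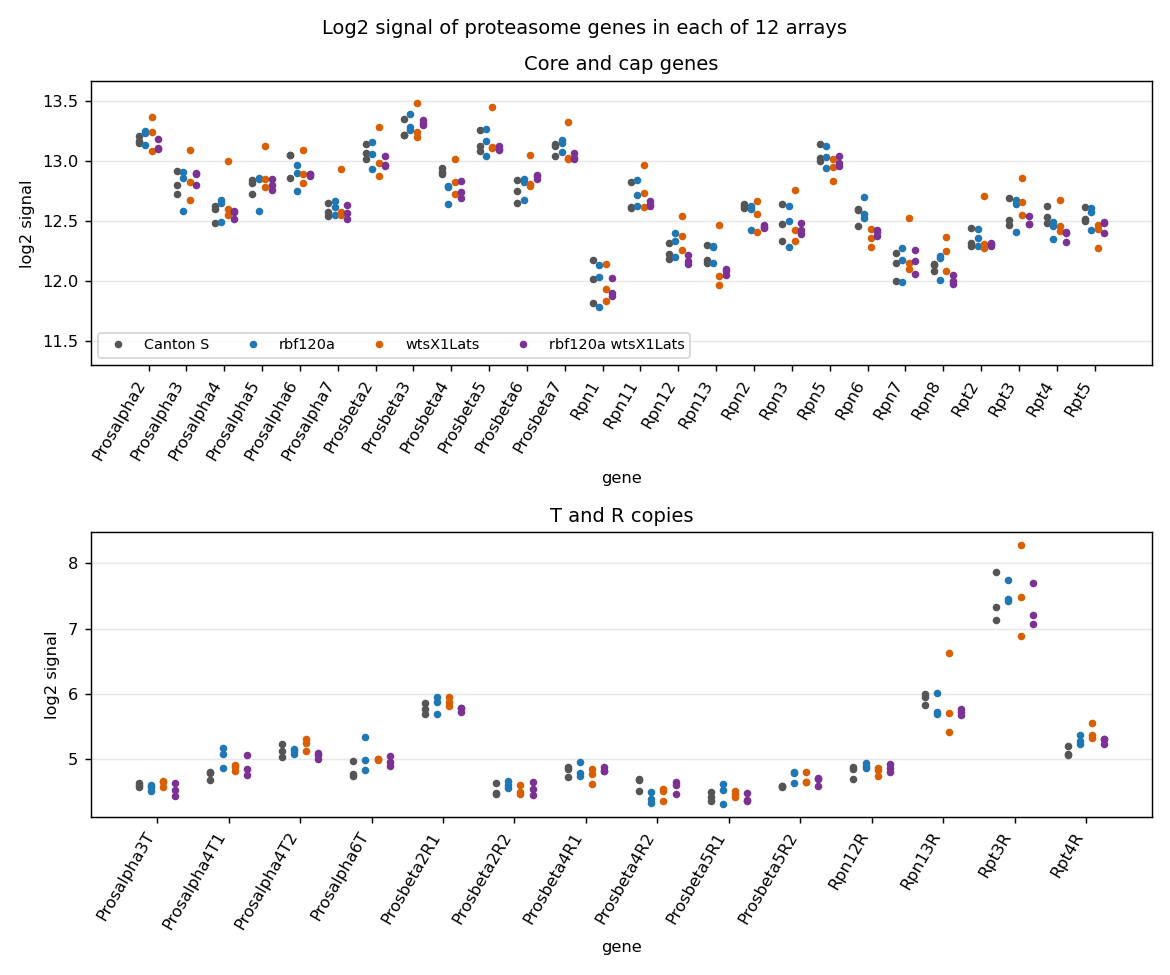
Log2 signal (vertical axis) of each proteasome gene (horizontal axis) in each of the 12 arrays, 1 point per array, coloured by genotype; core and cap genes are in the upper panel and the T and R copies in the lower, on separate scales. Core and cap values lie between 11.78 and 13.48 with the genotypes intermingled, and for most of these genes the highest point is one wtsX1Lats array; the copies are dim apart from Rpt3R.

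The alpha ring was represented by Prosalpha2, Prosalpha3, Prosalpha4, Prosalpha5, Prosalpha6 and Prosalpha7. Prosalpha7 had the lowest mean signal of the core genes. Its log2 signals in replicates 1, 2 and 3 were 12.58, 12.65 and 12.54 in the Canton S arrays, 12.67, 12.62 and 12.55 in the rbf120a arrays, 12.93, 12.55 and 12.57 in the wtsX1Lats arrays, and 12.63, 12.52 and 12.56 in the double mutant arrays. One wtsX1Lats array stood above the other 11 arrays, which overlapped whatever their genotype. Its change in wtsX1Lats was 0.10 ± 0.10 (SE, n = 3 per group, limma adjusted p = 0.646). Prosalpha4, which varied most among the alpha genes in wtsX1Lats discs, was at 12.63, 12.60 and 12.48 in the Canton S arrays, 12.68, 12.65 and 12.49 in the rbf120a arrays, 13.00, 12.60 and 12.55 in the wtsX1Lats arrays, and 12.58, 12.58 and 12.51 in the double mutant arrays. Again a single wtsX1Lats array was high and the rest overlapped. Over the 6 alpha genes the median change was -0.00345 for rbf120a, 0.0753 for wtsX1Lats and -0.0159 for the double mutant.

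Of the beta subunits, Prosbeta2 carries the trypsin-like and Prosbeta5 the chymotrypsin-like active site, and Prosbeta3, Prosbeta4, Prosbeta6 and Prosbeta7 are structural. Prosbeta3 had the highest mean signal of the core, and in replicates 1, 2 and 3 it was at 13.35, 13.22 and 13.22 in the Canton S arrays, 13.28, 13.39 and 13.26 in the rbf120a arrays, 13.48, 13.25 and 13.20 in the wtsX1Lats arrays, and 13.34, 13.32 and 13.30 in the double mutant arrays. The groups overlapped, and all its changes against Canton S were at most 0.06 ± 0.08 (SE). Prosbeta5 was at 13.26, 13.08 and 13.13 in the Canton S arrays, 13.26, 13.17 and 13.04 in the rbf120a arrays, 13.46, 13.12 and 13.11 in the wtsX1Lats arrays, and 13.12, 13.09 and 13.10 in the double mutant arrays. Its values and those of Prosbeta2, the other catalytic member measured, overlapped between all genotypes, and Prosbeta2 changed by -0.03 ± 0.10 (SE) for rbf120a, -0.03 ± 0.10 for wtsX1Lats and -0.09 ± 0.10 for the double mutant.

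Prosbeta4 and Prosbeta6 were the core genes in which a mutant group did not overlap Canton S. Prosbeta4 was at 12.95, 12.89 and 12.91 in the Canton S arrays and at 12.79, 12.79 and 12.64 in the rbf120a arrays. In wtsX1Lats it was at 13.02, 12.73 and 12.82, and in the double mutant at 12.83, 12.74 and 12.69. The rbf120a and double mutant arrays thus lay below all Canton S arrays, while the wtsX1Lats arrays spanned them. Its change was -0.18 ± 0.08 (SE) in rbf120a (limma adjusted p = 0.414) and -0.16 ± 0.08 in the double mutant (limma adjusted p = 0.387). Prosbeta6 was at 12.84, 12.65 and 12.75 in the Canton S arrays and at 12.88, 12.85 and 12.88 in the double mutant arrays, which lay just above, and its change there was 0.12 ± 0.09 (limma adjusted p = 0.591). Prosbeta4 was the only core or cap gene whose rbf120a arrays did not overlap Canton S, where 10.7% of all genes did not overlap on the higher side and 9.96% on the lower.

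Among the base subunits, Rpt2, Rpt3, Rpt4 and Rpt5 are ATPases, Rpn1 and Rpn2 are the scaffolds to which ubiquitin receptors dock, and Rpn13 is such a receptor and sits on Rpn2. Rpn1 had the lowest mean of the cap, at 12.18, 11.82 and 12.02 in the Canton S arrays, 12.14, 12.03 and 11.78 in the rbf120a arrays, 12.14, 11.93 and 11.83 in the wtsX1Lats arrays, and 11.89, 12.02 and 11.87 in the double mutant arrays. It varied within Canton S as much as between genotypes. All 7 base genes had a fitted change below 0 in the double mutant, between -0.174 and -0.0439 with a median of -0.0871, and none of them passed the test. Without Canton S replicate 1, 4 of the 7 stayed below 0. Rpn2 was at 12.63, 12.61 and 12.65 in the Canton S arrays and at 12.44, 12.47 and 12.45 in the double mutant arrays, and Rpt4 at 12.62, 12.53 and 12.48 against 12.40, 12.41 and 12.33. For both genes every double mutant array was below every Canton S array. Rpn2 changed by -0.17 ± 0.08 (SE, limma adjusted p = 0.309) and Rpt4 by -0.17 ± 0.08 (limma adjusted p = 0.341). These errors rest on a spread shared by all groups, the wtsX1Lats arrays included. With only the double mutant and Canton S arrays in the fit, the limma adjusted p of Rpn2 was 0.0526.

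The lid was represented by the deubiquitinase Rpn11, its partner Rpn8 and the scaffold subunits Rpn3, Rpn5, Rpn6, Rpn7 and Rpn12. Rpn5 had the highest mean of the cap, at 13.14, 13.03 and 13.00 in the Canton S arrays, 13.12, 13.03 and 12.94 in the rbf120a arrays, 12.84, 13.02 and 12.95 in the wtsX1Lats arrays, and 13.05, 12.99 and 12.96 in the double mutant arrays. Rpn11 was at 12.82, 12.62 and 12.61 in the Canton S arrays, 12.84, 12.72 and 12.63 in the rbf120a arrays, 12.96, 12.62 and 12.74 in the wtsX1Lats arrays, and 12.67, 12.63 and 12.63 in the double mutant arrays. For both genes the groups overlapped, with changes against Canton S of at most 0.09 ± 0.10 (SE) for Rpn11 and of -0.12 ± 0.07 for Rpn5 in wtsX1Lats.

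Rpn6, which braces the lid against the core, had the lowest adjusted p of the 26 genes against Canton S in the fit over 12 arrays. It is described here, like the genes above whose groups did not overlap, because of its values. Its log2 signals were 12.59, 12.60 and 12.46 in the Canton S arrays and 12.70, 12.53 and 12.56 in the rbf120a arrays. They were 12.36, 12.43 and 12.28 in the wtsX1Lats arrays and 12.40, 12.43 and 12.38 in the double mutant arrays. Every array with the wtsX1Lats allele was thus below every array without it. The share of all genes that part in this way is not given here, so the separation has no background to be set against. The change against Canton S was -0.19 ± 0.07 (SE) in wtsX1Lats, with an unadjusted p of 0.0242 and a limma adjusted p of 0.161, and -0.15 ± 0.07 in the double mutant (limma adjusted p = 0.381). Against rbf120a the double mutant differed by -0.19 ± 0.07 (limma adjusted p = 0.477). Rpt5 was also lower in all wtsX1Lats arrays, at 12.28, 12.46 and 12.44 against 12.62, 12.50 and 12.51 in the Canton S arrays, with a change of -0.15 ± 0.08 (limma adjusted p = 0.307).

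**Figure D2:**
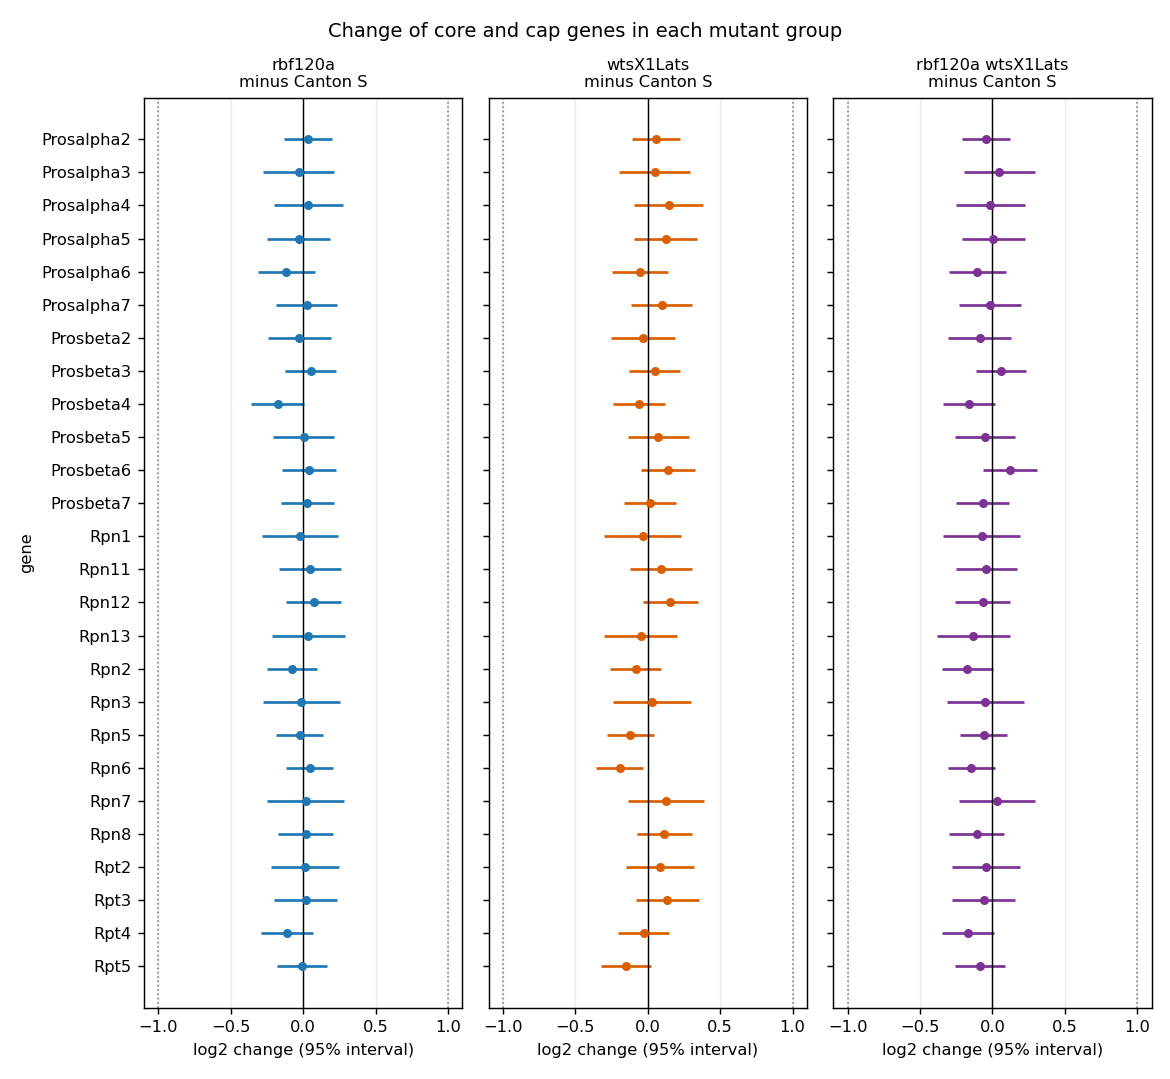
Log2 change against Canton S (horizontal axis, point with 95% interval from limma, n = 3 arrays per group) of the 26 core and cap genes (vertical axis) in rbf120a, wtsX1Lats and the double mutant; the dotted lines mark 1 on the log2 scale in either direction. All points lie close to 0 and every interval stays far inside the dotted lines, with Rpn6 the lowest point in wtsX1Lats.

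Groups that did not overlap were counted over the 26 genes as well. In wtsX1Lats against Canton S, 0 of 26 lay wholly above and 2 wholly below, Rpn6 and Rpt5, where 11.4% and 8.60% of all genes did. In the double mutant, 1 gene lay above, Prosbeta6, and 7 below: Prosbeta4, Rpn13, Rpn2, Rpn6, Rpn8, Rpt4 and Rpt5. The shares over all genes were 13.8% above and 13.7% below. Fitted changes in the double mutant were above 0 in 5 of the 26 genes and below 0 in the others, with a median of -0.031 in the core and -0.0688 in the cap. Without Canton S replicate 1, 11 of the 26 were above 0.

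Between the mutant groups, the double mutant lay wholly below rbf120a for Prosbeta7, Rpn13 and Rpn6 and wholly above it for Prosbeta6, where 12% and 11.2% of all genes did. It lay wholly below wtsX1Lats for Rpn12, Rpn8, Rpt3 and Rpt4, where 8.88% of all genes did, and wholly above for 0 genes, where 5.29% did. The lid genes Rpn8 and Rpn12 gave the lowest p-values of the core and cap genes in that contrast. Rpn8 was at 12.36, 12.08 and 12.25 in the wtsX1Lats arrays and between 11.97 and 12.05 in the double mutant arrays, a change of -0.22 ± 0.09 (SE, limma adjusted p = 0.532). Rpn12, a lid scaffold, was at 12.54, 12.26 and 12.37 in the wtsX1Lats arrays and 12.21, 12.16 and 12.14 in the double mutant arrays, a change of -0.22 ± 0.09 (limma adjusted p = 0.535). Without wtsX1Lats replicate 1 these changes were -0.16 ± 0.08 and -0.14 ± 0.08. For that contrast the limma test called 0 of all 11983 genes, and 489 were higher and 544 lower at an unadjusted p under 0.05. In the interaction the lowest p of the core and cap was that of Rpn12, at -0.29 ± 0.12 (limma adjusted p = 0.465).

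In one array most core and cap genes were high together. In wtsX1Lats replicate 1, 22 of the 26 genes were higher than in all the other 11 arrays, or 84.6%, against 25.5% of all genes. All 12 core genes were among them. The median deviation of the 26 genes from their own means was 0.240 there, and -0.0446 and -0.0518 in replicates 2 and 3 of the same genotype. In the other arrays it was 0.0895, -0.0153 and -0.0458 for Canton S, 0.0823, 0.032 and -0.114 for rbf120a, and -0.0324, -0.0572 and -0.0819 in the double mutant. In rbf120a replicate 3, 9 of the 26 genes were lower than in all other arrays, against 6.00% of all genes.

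Some cap genes did not follow that array. Rpn5 and Rpt5 were lower in wtsX1Lats replicate 1 than in all other arrays. Rpn5 was at 12.84 against at least 12.94, and Rpt5 at 12.28 against at least 12.40. These 2 were 7.69% of the 26 genes, where 15.7% of all genes were lower there than in all other arrays. Rpn6 was at 12.36 there, within the range of the rest. Rpn1 was high there, at 12.14, with only Canton S replicate 1 higher at 12.18. The lid and base genes thus did not all move together in this array, while all the alpha and beta genes measured were at their highest.

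**Figure D3:**
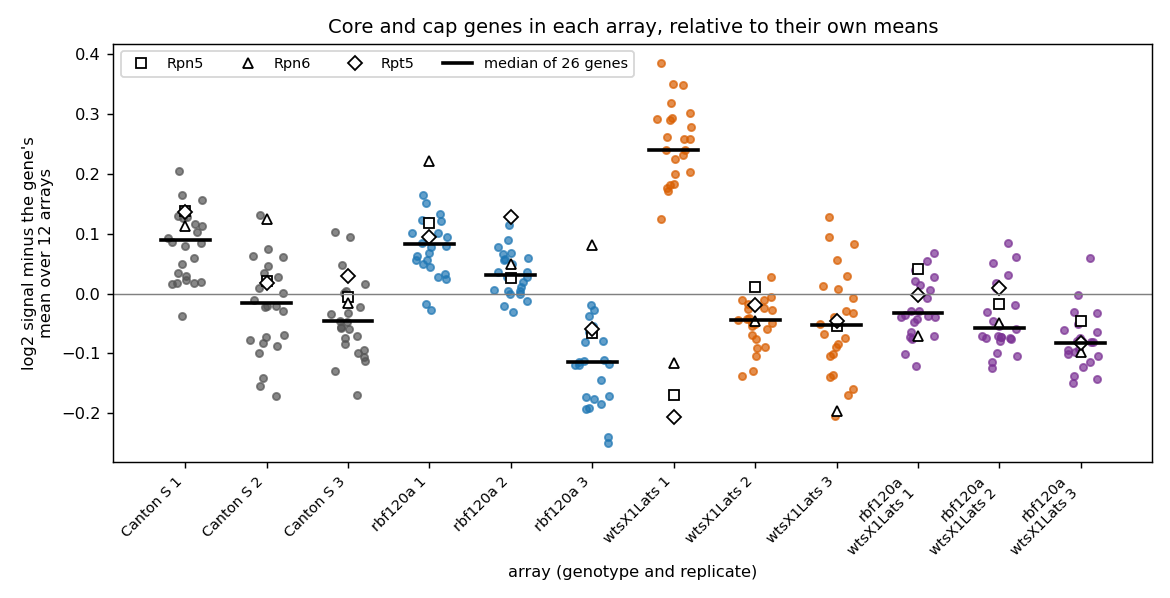
Log2 signal of each core and cap gene minus its own mean over the 12 arrays (vertical axis), by array (horizontal axis), with 1 point per gene, a bar at the median of the 26 genes and open symbols for Rpn5, Rpn6 and Rpt5. wtsX1Lats replicate 1 has a median of 0.240 with the 3 open symbols below 0, and the other 11 medians lie between -0.114 and 0.0895.

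Other measures were compared over the same arrays. The difference between the probe sets for the 3' and 5' ends of a control transcript is a measure of RNA integrity. In wtsX1Lats replicate 1 it was the lowest of the 12 arrays for actin (0.320), GAPDH (1.11) and eIF-4a (0.576), by small margins. The next lowest values were 0.344 for actin and 1.13 for GAPDH, both in double mutant replicate 3. For eIF-4a the next was 0.581, in Canton S replicate 1. In wtsX1Lats replicate 3 the difference was 1.70, 1.81 and 1.90, above the highest value in the other 11 arrays of 0.824, 1.43 and 0.947. The median of the muscle markers, 6 of 10 measured, was 9.34 in wtsX1Lats replicate 1, 10.69 in replicate 2 and 12.22 in replicate 3, against 10.75 to 12.02 in Canton S, 11.21 to 11.57 in rbf120a and 10.65 to 10.71 in the double mutant. The medians of the brain and glia markers, 6 of 6 measured, lay between 8.57 and 9.04 in wtsX1Lats, 9.49 and 9.61 with Canton S, 9.45 and 9.75 with rbf120a, and 8.65 and 9.05 in the double mutant. Those of the eye disc markers, 10 of 10 measured, lay between 9.72 and 10.24, 10.32 and 10.40, 10.04 and 10.23, and 10.17 and 10.43, in the same order. Within that list genes moved in opposite directions. In wtsX1Lats gl and sens, which act in photoreceptor differentiation, fell by 1.60 and 1.13 on the log2 scale, and Optix, a gene of early eye formation, rose by 0.60. In the double mutant gl and sens fell by 1.38 and 0.92, while Optix rose by 0.76 and ey, another early eye gene, by 0.91. In rbf120a 0 of the 10 passed. In wtsX1Lats replicate 1, 7 of the 10 were lower than in all other arrays, where 15.7% of all genes were. The blood cell markers, 10 of 10 measured, had medians of 8.50 to 8.95 in Canton S and of 7.07 to 8.17 in the mutant arrays. Their part in the proteasome values was not tested. Of the 9 subunit genes of the COP9 signalosome, a complex built like the lid, 7 were also highest in wtsX1Lats replicate 1, with a median deviation of 0.19. Of 37 cytosolic ribosomal protein genes 19 were highest there, with a median deviation of 0.0601. Of the 5 genes for transcriptional control of the proteasome described below, 4 were lower there than in all other arrays. The median deviation of the 5 was -0.383. Over all genes, 25.5% were higher and 15.7% lower in that array than in all others.

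Leaving that array out turned the direction of the median change in wtsX1Lats. The median over the 26 genes went from 0.0478 to -0.0612, that of the double mutant against wtsX1Lats from -0.0932 to 0.0118, and that of the interaction from -0.0739 to 0.0182. Of the 26 genes 0 passed in any of the 6 contrasts without it, and the intervals in wtsX1Lats against Canton S then ran from 0.762-fold to 1.20-fold. Rpn6 was as low without that array as with it, at -0.19 ± 0.08 (SE, limma adjusted p = 0.201). The median SD within a group over the 26 genes was 0.157 in wtsX1Lats, 0.102 in rbf120a, 0.0774 in Canton S and 0.0389 in the double mutant, against 0.167, 0.0954, 0.125 and 0.0835 over all genes.

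The core and cap genes were bright, so they were set beside other genes of similar mean signal. Signals of different probe sets are not on a common scale and do not order the genes by RNA. The dimmest of the 26, Rpn1, had a mean brighter than 96.5% of all gene means, and Prosbeta3 one brighter than 99.5%. Another 398 genes were at least as bright as Rpn1. Of these the limma test called 7 in rbf120a against Canton S (1.76%), 15 in wtsX1Lats (3.77%) and 18 in the double mutant (4.52%), with log2 rises of up to 2.37 and falls down to -1.44. Some genes of this mean brightness were thus called, though in a lower share than of all genes in each of these contrasts. The smallest change called among them was not examined. These counts therefore do not show whether a small change of the core and cap genes would be called.

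The 14 T and R copies differed from the core and cap in signal. Their means over 12 arrays lay between 4.445 and 5.843, apart from Rpt3R at 7.463, where the median gene had a mean of 7.438 and the lower quartile 5.043. Of the markers of the testis, where several copies are known to be used, 24 of 24 were measured and 0 passed in any contrast. Their median lay between 4.64 and 4.86 in every array, with gene means from 3.98 to 8.15. Detection calls were not used here, so these values do not show whether a copy was transcribed.

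Prosbeta5R1, a copy of Prosbeta5, had the lowest mean, at 4.41, 4.36 and 4.50 in the Canton S arrays, 4.53, 4.62 and 4.31 in the rbf120a arrays, 4.51, 4.42 and 4.46 in the wtsX1Lats arrays, and 4.36, 4.37 and 4.48 in the double mutant arrays. The groups overlapped. Rpt3R, the copy of the ATPase gene Rpt3, had the highest mean and the widest spread of the copies, at 7.34, 7.87 and 7.13 in the Canton S arrays, 7.74, 7.43 and 7.45 in the rbf120a arrays, 8.27, 7.48 and 6.88 in the wtsX1Lats arrays, and 7.69, 7.21 and 7.06 in the double mutant arrays. The wtsX1Lats arrays held both its highest and its lowest value, and its change there was 0.10 ± 0.31 (SE). Rpn13R, the copy of the ubiquitin receptor gene, ran the other way over the same arrays, at 5.41, 5.71 and 6.63 in the wtsX1Lats arrays, and lay between 5.68 and 6.01 in the 9 arrays of the other genotypes.

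Rpt4R, the copy of the ATPase gene Rpt4, came nearest to the threshold of all 40 genes. It was at 5.20, 5.07 and 5.07 in the Canton S arrays, 5.22, 5.37 and 5.28 in the rbf120a arrays, 5.55, 5.37 and 5.32 in the wtsX1Lats arrays, and 5.30, 5.31 and 5.23 in the double mutant arrays. All 9 mutant arrays lay above the 3 Canton S arrays, which the 3 contrasts share. The share of all genes for which this holds is not given here. Its change was 0.30 ± 0.08 (SE) in wtsX1Lats, a fold of 1.23 with a 95% interval of 1.09 to 1.39 and a limma adjusted p of 0.0548. It was 0.18 ± 0.08 in rbf120a (limma adjusted p = 0.393) and 0.17 ± 0.08 in the double mutant (limma adjusted p = 0.336). Over 21 alternative settings the adjusted p in wtsX1Lats ran from 0.0309 to 0.286, with changes from 0.23 to 0.345. It passed when wtsX1Lats replicate 3 was left out, when arrays were centred on their medians (0.044) and with robust variances (0.0486). Rpt4 itself, measured by another probe set, changed by -0.03 ± 0.08 in wtsX1Lats.

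**Figure D4:**
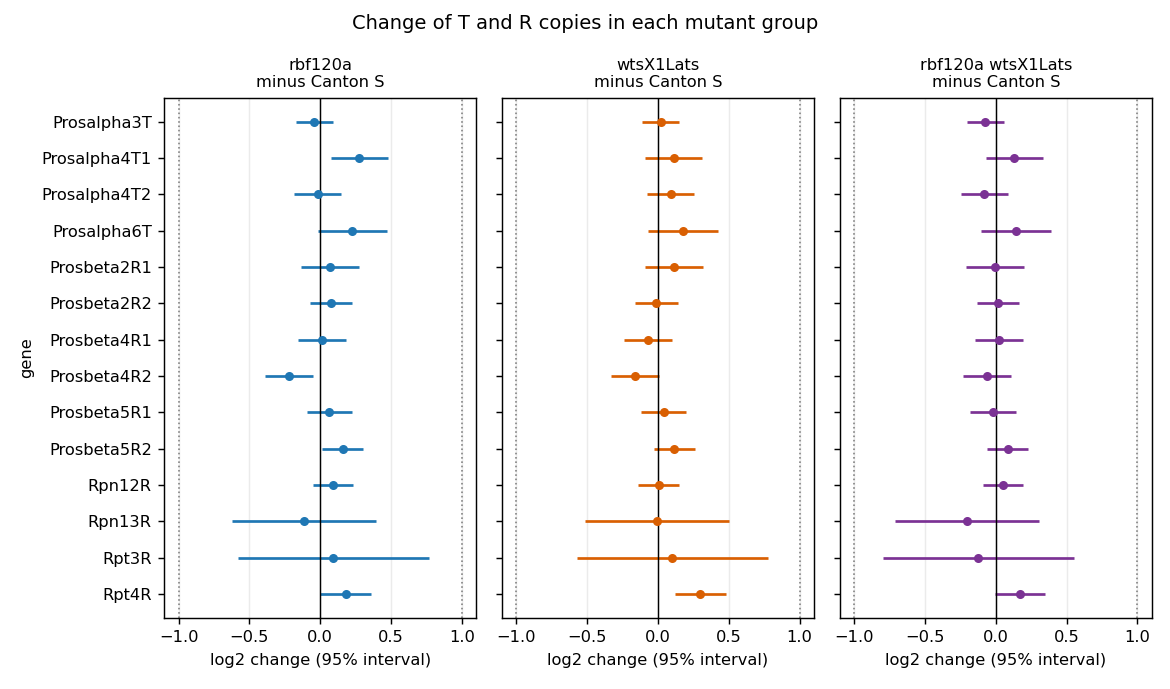
Log2 change against Canton S (horizontal axis, point with 95% interval from limma, n = 3 arrays per group) of the 14 T and R copies (vertical axis) in rbf120a, wtsX1Lats and the double mutant; the dotted lines mark 1 on the log2 scale in either direction. Rpt4R lies to the right of 0 in all panels, and Rpt3R and Rpn13R have the widest intervals.

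Among the other copies, those of alpha and beta subunits gave a few low unadjusted p-values in rbf120a. With Rpt4R, 3 copies were higher and 1 lower at an unadjusted p under 0.05, where 6.67% and 5.85% of all genes were. Prosalpha4T1 was at 4.79, 4.69 and 4.80 in the Canton S arrays and 4.86, 5.08 and 5.17 in the rbf120a arrays, a change of 0.28 ± 0.09 (SE, limma adjusted p = 0.175). Its rbf120a arrays lay above all Canton S arrays, though 1 by a small margin. Prosbeta5R2 changed by 0.16 ± 0.07 (limma adjusted p = 0.313). Prosbeta4R2 was at 4.70, 4.51 and 4.68 in the Canton S arrays and 4.50, 4.33 and 4.39 in the rbf120a arrays, a change of -0.22 ± 0.08 (limma adjusted p = 0.190). In wtsX1Lats 4 copies lay wholly above Canton S, Prosalpha4T1, Prosalpha6T, Prosbeta5R2 and Rpt4R, and 0 wholly below, where 11.4% and 8.60% of all genes did. In the double mutant 1 lay above, Rpt4R, and 1 below, Rpn13R, where 13.8% and 13.7% did. Against wtsX1Lats, Prosalpha4T2 in the double mutant was the only copy at an unadjusted p under 0.05 (-0.17 ± 0.08, limma adjusted p = 0.575). In the interaction, Prosbeta4R2 was at 0.32 ± 0.11 (limma adjusted p = 0.299) and Rpt4R at -0.31 ± 0.12 (limma adjusted p = 0.38). The rest, Prosalpha3T, Prosbeta2R1, Prosbeta2R2, Prosbeta4R1 and Rpn12R, had changes between -0.073 and 0.113 against Canton S.

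Genes that work with the proteasome were followed from written lists. Of 7 measured genes for assembly factors, regulators and deubiquitinases, among them Pomp, an assembly chaperone, and PI31, a regulator that binds the core, 0 passed in the contrasts with Canton S. Their medians were 0.0386 for rbf120a, 0.0835 for wtsX1Lats and -0.0433 for the double mutant. REG, an activator that can replace the cap, was at 11.97, 11.95 and 11.94 in the Canton S arrays and 12.19, 12.11 and 12.10 in the double mutant arrays, and did not pass. Uch-L5, a deubiquitinase of the cap, was at 11.56, 11.48 and 11.32 in the Canton S arrays and 11.78, 11.74 and 11.84 in the double mutant arrays, and did not pass either. For both genes every double mutant array was above every Canton S array, for which they are named here. They were 2 of the 7, and 13.8% of all genes lay wholly above.

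Transcription of proteasome genes is known to be raised, when proteasome activity is low, by Cnc, the fly factor related to mammalian Nrf, together with its partner Maf-S. Of 5 genes on that list, cnc, maf-S, Keap1, rngo and Pngl, 0 passed in any contrast. Cnc RNA was at 11.36, 11.73 and 11.37 in the Canton S arrays, 11.52, 11.50 and 11.54 in the rbf120a arrays, 10.664, 10.997 and 11.605 in the wtsX1Lats arrays, and 11.13, 11.14 and 11.13 in the double mutant arrays. The wtsX1Lats arrays spread widely, and the double mutant arrays lay below Canton S. So did those of maf-S and Pngl, which made 3 of the 5 genes, where 13.7% of all genes lay wholly below, and the median change of the 5 was -0.141. Keap1, which binds Cnc, was at 7.93, 7.99 and 7.58 in the Canton S arrays and 7.76, 7.88 and 7.92 in the double mutant arrays, with no separation.

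Upstream of the proteasome, 0 of 11 measured genes for ubiquitin and its E1, E2 and E3 enzymes and 0 of 6 for the segregase TER94 and shuttle factors passed in the contrasts with Canton S. Of 22 subunit and co-factor genes of cullin and APC/C ubiquitin ligases, fzy alone passed. It was called higher in wtsX1Lats and in the double mutant, where 2.28% and 2.23% of all genes were. It encodes the mitotic APC/C activator, and was at 10.42, 10.37 and 10.37 in the Canton S arrays, 10.90, 10.91 and 10.92 in the rbf120a arrays, 11.57, 11.02 and 10.68 in the wtsX1Lats arrays, and 11.16, 10.99 and 11.14 in the double mutant arrays. The rise was 0.70 ± 0.17 (SE, limma adjusted p = 0.0333) in wtsX1Lats and 0.71 ± 0.17 (limma adjusted p = 0.0311) in the double mutant. In rbf120a the change was 0.52 ± 0.17 (limma adjusted p = 0.156), and it passed in 4 of 22 alternative settings. All 4 left wtsX1Lats arrays, which are not part of this contrast, out of the fit. With only the rbf120a and Canton S arrays the limma adjusted p was 0.00354, and without wtsX1Lats replicate 1 it was 0.00552. With the mean of the fzy probe sets it was 0.836. The calls in wtsX1Lats and the double mutant were lost in 11 and 7 of 22 alternative settings, most of them without 1 array, and with the mean of its probe sets the adjusted p was 0.513 and 0.515. The COP9 signalosome, which removes Nedd8 from cullins, had 0 of 9 genes called.

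In rbf120a, wtsX1Lats and the double mutant 1.71%, 3.33% and 3.26% of all genes were called lower. Of 18 chaperone and chaperonin genes, 1 was called lower and 0 higher in each mutant group. It was stv, the co-chaperone of the heat shock proteins known as starvin, at 9.67, 10.15 and 9.57 in the Canton S arrays, 7.49, 7.31 and 7.70 in the rbf120a arrays, 7.57, 6.84 and 7.57 in the wtsX1Lats arrays, and 7.41, 7.40 and 7.09 in the double mutant arrays. All mutant arrays lay far below Canton S. The fall was much the same in the double mutant, at -2.50 ± 0.22 (SE), as in wtsX1Lats, at -2.47 ± 0.22. With the mutant groups alike and only Canton S apart, stv passed in the interaction, at 2.27 ± 0.31 (limma adjusted p = 0.00434). For stv, too, the design does not separate an allele from a difference between strains. The change was -2.30 ± 0.22 (SE, limma adjusted p = 0.000118) in rbf120a and was past the threshold under all 22 alternatives in each of the 3 contrasts. Among the 37 ribosomal protein genes, another large complex, 1 gene was called higher in each mutant group, RpL27. The shares of all genes called higher were 1.79%, 2.28% and 2.23%. RpL27 changed by 0.33 ± 0.06 in rbf120a (limma adjusted p = 0.00652) and 0.33 ± 0.06 in wtsX1Lats (limma adjusted p = 0.00575). In the double mutant it changed by 0.30 ± 0.06 (limma adjusted p = 0.00997). The RpL27 calls were lost with the wtsX1Lats and Canton S arrays alone in wtsX1Lats, and without Canton S replicate 1 or double mutant replicate 1 in the double mutant. The medians of the ribosomal genes were 0.00257, 0.0283 and 0.0131, and the standard error of RpL27 was below those of all 40 proteasome genes.

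**Figure D5:**
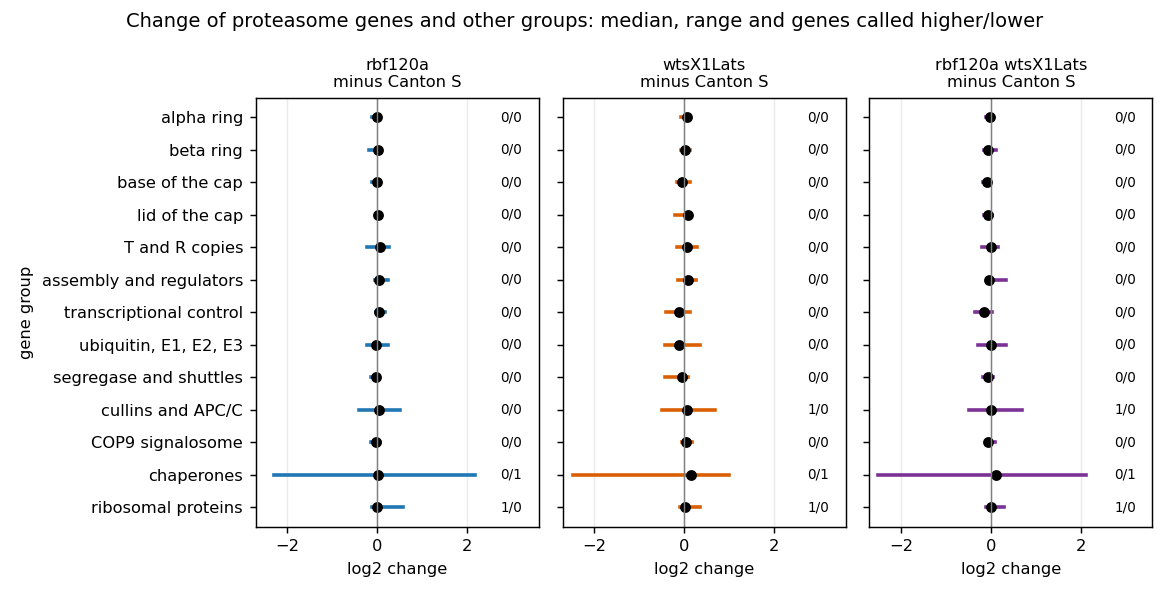
Log2 change against Canton S (horizontal axis) in rbf120a, wtsX1Lats and the double mutant for each group of genes (vertical axis), with a point at the group's median and a line over its range, and the number of genes called higher and lower at the right of each panel. The alpha ring, beta ring, base, lid and copies all read 0 and 0, and the longest line is that of the chaperones, whose lowest gene is stv.

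The mutated genes themselves gave no check of the labels. Rbf changed by -0.29 ± 0.26 (SE, limma adjusted p = 0.812) in rbf120a and wts by -0.25 ± 0.22 (limma adjusted p = 0.59) in wtsX1Lats. The sources used here do not place the alleles on the probe sets.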

How the data were processed

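RNA from eye discs was hybridised to 12 single-colour Affymetrix arrays, 3 for each of 4 genotypes. The authors deposited 1 table of log2 values of 18952 probe sets. That they are log2 was inferred from their range, 3.55 to 14.53. The sources used here do not give the summary and normalization method; array medians lay between 5.76 and 5.86. Precision is limited by the small number of arrays. Among all probe sets, 183 were controls, 13647 listed 1 gene, 402 several and 4720 none in the platform annotation; 13544 were matched to the current gene table. For each of 11983 genes the probe set with the highest mean was kept. The labels call the replicates biological without naming animals, so p-values measure the spread between these samples. No arrays held identical values.

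limma 3.58.1 in R 4.3.3 fitted 4 group means over 12 arrays (8 residual degrees of freedom, eBayes with a variance trend). The p-values were adjusted by Benjamini-Hochberg over all genes. The test was also run on simulated data with independent noise and the same spread in all groups. That setting lacks the unequal group spreads and shared array shifts seen here. Errors of changes are standard errors. Members and lists were chosen with earlier results of these data known. Array values are given for the highest and lowest member of core, cap and copies; other genes given in full were chosen after their values were seen.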

Additional observations from a re-analysis of the deposited data

How the results depend on the processing

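Under all 22 alternatives the core and cap genes called stayed at 0 in each contrast for which an alternative gave a value. They changed the variance moderation, the probe sets per gene, the features tested, the filter, the normalization, the arrays in the fit or the replicate block, or left out 1 array. Of 5162 values of single members 5159 kept their side of the threshold, and the 3 others were Rpt4R in wtsX1Lats. Copies called in wtsX1Lats were thus 1 with robust eBayes, 1 with arrays centred on their medians, and 0 to 1 when 1 array was left out (1 without wtsX1Lats replicate 3). With 1 array left out, the median change of core and cap genes ran from -0.0295 to 0.0645 in rbf120a, from -0.0612 to 0.104 in wtsX1Lats, from -0.0785 to -0.0191 in the double mutant, from -0.111 to -0.0138 in the double mutant against rbf120a, from -0.152 to 0.0118 in the double mutant against wtsX1Lats, and from -0.147 to 0.0182 in the interaction; the lowest in wtsX1Lats and the highest in the last 2 were without wtsX1Lats replicate 1. Replicate numbers were not taken to pair arrays: same-number correlations of deviations over all genes were over 0.1 in 6 of 18 pairs, and 5 of 12 arrays correlated best with their own number. For the core and cap genes, though, the array numbered 1 had the highest median deviation and that numbered 3 the lowest in each of the 4 genotypes. With the replicate block, 0 members were called, with 388, 674 and 620 of all genes in the 3 contrasts with Canton S, and the fit over wtsX1Lats replicate 2 alone, chosen after seeing the data, also called 0. Counts over all genes moved more: from 420 to between 197 and 794 in rbf120a, from 672 to between 181 and 1596 in wtsX1Lats, from 658 to between 297 and 1400 in the double mutant, from 81 to between 29 and 412 against rbf120a, from 0 to at most 20 against wtsX1Lats, and from 107 to between 41 and 158 in the interaction. The cause was not tested. A filter above the median gene kept 26 core and cap genes and 1 copy, Rpt3R. The 3 arrays a group limit the precision.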
